A study of Mus musculus with 4 samples.

Results

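A set of 10 genes of hepatic fatty acid synthesis and of its control by the transcription factors ChREBP and SREBP-1 was followed through 4 mouse liver sections. They were chosen by gene symbol from the 32285 genes of the deposited feature lists, and all 10 were found: Scd1, Fasn, Acaca, Acly, Elovl6, Me1, Srebf1, Mlxipl, Thrsp and Angptl8. The sections were measured with Visium, in which a frozen tissue section lies on an array of barcoded spots and the RNA over each spot is captured and counted as unique molecular identifiers (UMIs). A spot can hold several cells of different types.

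There were 4 groups of 1 section each, named STAM16w, STAM20w, DEN22w and DEN30w in the labels, and w was read as weeks. STAM is a metabolic model of hepatocellular carcinoma, described by the submitters as resembling steatohepatitis with type I diabetes. DEN+CCl4 is a fibrotic model of the same cancer driven by DNA damage, named for diethylnitrosamine and carbon tetrachloride. The labels give no strain, sex, dose or diet, and they leave unsaid what the weeks are counted from, and whether the sections of a model came from separate animals. The models share no labelled time, so model and time cannot be told apart, and no untreated liver was analysed here.

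Hepatocytes turn surplus sugar into fat by exporting citrate from mitochondria, cleaving it to acetyl-CoA, building palmitate from it, and then elongating and desaturating the product. Insulin drives this pathway through SREBP-1c and glucose drives it through ChREBP, so the pathway is classically low in insulin deficiency and in fasting and high after carbohydrate feeding. Synthesis and its regulators are also known to be distributed unevenly between the portal and the central vein of the liver lobule.

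The enzymes were Acly (ENSMUSG00000020917, chr11:100476352-100528000), which makes cytosolic acetyl-CoA from citrate, Acaca (ENSMUSG00000020532, chr11:84129635-84401651), which makes malonyl-CoA, and Fasn (ENSMUSG00000025153, chr11:120805958-120825166), the fatty acid synthase. Elovl6 (ENSMUSG00000041220, chr3:129532386-129638495) elongates palmitate, Scd1 (ENSMUSG00000037071, chr19:44394450-44407709) introduces the double bond that makes oleate, and Me1 (ENSMUSG00000032418, chr9:86581363-86695914), the cytosolic malic enzyme, supplies NADPH. Srebf1 (ENSMUSG00000020538, chr11:60199084-60224186) encodes SREBP-1, and Mlxipl (ENSMUSG00000005373, chr5:135089890-135139768) encodes ChREBP. Thrsp (ENSMUSG00000035686, chr7:97412933-97417550), also called Spot 14, is a lipogenic protein induced by thyroid hormone and carbohydrate, and Angptl8 (ENSMUSG00000047822, chr9:21835510-21837347) is a secreted, feeding-induced inhibitor of lipoprotein lipase. All positions are those of RefSeq's assembly GRCm38.p6, and all 10 are protein-coding genes.

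The RefSeq promoter table of the same assembly held 13 windows for 9 of the 10 genes. Shown here, 5′ to 3′ on the gene's strand, are the 250 bases before the annotated start of Acly and Thrsp, which were higher at the periportal end of the lobule, of Me1, whose 4 sections all leaned the other way, and of both Mlxipl starts. The Mlxipl windows held the matches to the sterol regulatory element and to the palindromic E-box. Capitals mark matches, on either strand, to the motifs spelled out below the sequences, and matches that overlap or touch run together.
Acly (chr11:100528001-100528250, minus strand): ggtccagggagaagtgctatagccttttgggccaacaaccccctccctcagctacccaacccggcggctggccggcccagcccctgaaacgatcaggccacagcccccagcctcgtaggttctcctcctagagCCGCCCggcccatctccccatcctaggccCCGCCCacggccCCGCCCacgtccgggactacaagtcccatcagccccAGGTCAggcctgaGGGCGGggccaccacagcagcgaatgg
Thrsp (chr7:97417551-97417800, minus strand): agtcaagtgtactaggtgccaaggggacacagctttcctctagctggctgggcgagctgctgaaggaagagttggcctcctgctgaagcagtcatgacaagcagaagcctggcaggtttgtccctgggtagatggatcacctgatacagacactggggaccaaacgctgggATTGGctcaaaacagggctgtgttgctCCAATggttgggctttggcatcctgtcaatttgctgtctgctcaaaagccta
Me1 (chr9:86695915-86696164, minus strand): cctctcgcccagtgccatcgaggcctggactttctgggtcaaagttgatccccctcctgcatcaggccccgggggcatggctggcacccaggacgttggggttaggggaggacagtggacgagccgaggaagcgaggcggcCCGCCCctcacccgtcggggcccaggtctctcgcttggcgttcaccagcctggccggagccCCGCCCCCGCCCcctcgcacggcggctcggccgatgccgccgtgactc
Mlxipl (chr5:135089640-135089889, plus strand): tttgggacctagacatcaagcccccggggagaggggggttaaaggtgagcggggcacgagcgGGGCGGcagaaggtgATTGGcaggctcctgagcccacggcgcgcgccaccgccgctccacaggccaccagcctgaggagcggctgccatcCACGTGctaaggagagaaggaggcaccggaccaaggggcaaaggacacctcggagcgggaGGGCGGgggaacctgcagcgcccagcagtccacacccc
Mlxipl (chr5:135106641-135106890, plus strand): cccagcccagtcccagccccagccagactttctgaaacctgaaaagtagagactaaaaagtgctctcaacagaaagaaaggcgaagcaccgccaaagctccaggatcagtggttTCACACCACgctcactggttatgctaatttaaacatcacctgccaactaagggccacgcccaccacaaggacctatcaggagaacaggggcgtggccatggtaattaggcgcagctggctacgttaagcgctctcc
The sterol regulatory element, searched as TCACNCCAC, was in 1 of the 13 windows, the Mlxipl window that starts at base 135106641, and in 1.05% of all 32851 windows of the table. A palindromic E-box, spelled CACGTG, was in the other Mlxipl window and in 6.02% of all windows of the table. The letters of the CCAAT box were in 6 of 13 windows, of Fasn, Me1, Srebf1, Mlxipl and Thrsp, and in 33.9% of all windows. The GC box, searched as GGGCGG, was in 5 of the 13 windows, of Acly, Me1, Srebf1 and Mlxipl, and in 32.7% of all. The core motif of nuclear receptors, searched as AGGTCA, was in 2 of the 13 windows, of Acly and Elovl6, and in 14.0% of all. The TATA box, searched as TATAAA, was in 0 of the 13 windows and in 12.4% of all. These matches describe letters in the windows and are not evidence of binding.

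After removal of spots under 500 UMIs or 250 genes, 2080, 2833, 2746 and 2968 spots remained in STAM16w, STAM20w, DEN22w and DEN30w, with 20700642 to 40008457 UMIs per section and medians of 7302.5 to 12761 UMIs per spot. Pairs of sections shared 1635 to 2091 spot barcodes, which are printed positions of the array. The tissue label was checked on 9 hepatocyte genes such as Alb and Apob, whose UMIs summed to 38637, 51089, 82336 and 72642 per 1000000 UMIs in that order. In this sum both STAM sections were below both DEN+CCl4 sections, though not for every gene of the list. The part of hepatocyte content in the differences between the models was not tested. Adipocytes also run this pathway, and an 8-gene adipocyte list summed to 93.5, 571, 93.0 and 54.3 per 1000000 UMIs. Its defining genes were at or near 0: Adipoq had 0, 1, 0 and 1 UMIs, Plin1 0, 3, 0 and 0, and Lep 0 in all 4 sections. Other members of the list were detected: Fabp4, which other cells also express, gave 552 of the 571 in STAM20w, Adrb3 had 516, 202, 1385 and 1026 UMIs, more in the DEN+CCl4 sections, and Pparg had 178, 525, 21 and 82, more in the STAM sections. Their part in the results below was not tested. Levels below are in counts per 1000000 (CPM), that is, a gene's UMIs scaled to a section total of that size. In such sums, fewer cells of a type and less RNA per cell cannot be told apart.

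Most of the pathway was at a lower level in both STAM sections than in both DEN+CCl4 sections, but with 2 sections a model no gene of the 10 passed the test across all genes. The 10 genes summed to 1111 CPM in STAM16w and 1970 CPM in STAM20w, against 7735 CPM in DEN22w and 6725 CPM in DEN30w. For 8 genes, both STAM sections were below both DEN+CCl4 sections, against 39.2% of the 14417 genes tested. Me1 had both STAM sections above, against 18.5% of genes, and Thrsp overlapped.

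Scd1 spanned the widest range of levels. Its level was 81.7 CPM in the STAM16w section (95% Poisson interval 77.9 to 85.7) and 905 CPM (896 to 914) in the later STAM section. DEN22w stood at 3127 CPM (3104 to 3150), and the later DEN+CCl4 section at 5148 CPM (5124 to 5171). STAM16w was far below the other 3 sections, and the models did not overlap. Scd1 made up 7.36% of the 10 genes' UMIs in STAM16w and 76.5% in DEN30w, with 45.9% and 40.4% in STAM20w and DEN22w. Its mean was 493 ± 582 CPM in STAM and 4137 ± 1429 in DEN+CCl4 (SD, n = 2 each), a log2 difference of -2.95 (SE 1.04, adjusted p = 0.178, edgeR's quasi-likelihood test with Benjamini-Hochberg adjustment). The size depends on the STAM sections: it was -2.10 without STAM16w and -5.43 without STAM20w.

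The citrate-to-malonyl-CoA steps differed least within a model. Acly was at 62.7 and 63.3 CPM in STAM16w and STAM20w and at 174 and 172 CPM in DEN22w and DEN30w. Acaca was at 41.8 and 41.5 CPM in the STAM sections and at 107 and 99.7 CPM in the DEN+CCl4 sections. For both enzymes the gap between models was many times the gap between the sections of a model. The log2 differences of STAM from DEN+CCl4 were -1.29 for Acly (SE 0.21, adjusted p = 0.0680) and -1.14 for Acaca (SE 0.21, adjusted p = 0.0784), the lowest adjusted p-values of the 10 genes in edgeR's quasi-likelihood test.

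Fasn was at 149, 208, 734 and 361 CPM in STAM16w, STAM20w, DEN22w and DEN30w, and its log2 difference was -1.48 (SE 0.44, adjusted p = 0.137, edgeR), or -0.79 without DEN22w. Elovl6 was at 59.7, 47.1, 107 and 67.5 CPM, with STAM16w and DEN30w close together, and its log2 difference was -0.54 (SE 0.34, adjusted p = 0.376, edgeR). Me1 was at 94.6, 132, 93.0 and 75.3 CPM, a log2 difference of 0.58 (SE 0.25, adjusted p = 0.244, edgeR). Me1 was the only gene of the 10 with both STAM sections above both DEN+CCl4 sections, and STAM16w and DEN22w were nearly level.

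Among the regulators, Mlxipl was at 199.7, 83.5, 601 and 371 CPM in the same order, and Srebf1 was at 48.9, 87.7, 265 and 103 CPM. The log2 differences were -1.59 for Mlxipl (SE 0.54, adjusted p = 0.172) and -1.31 for Srebf1 (SE 0.53, adjusted p = 0.217) in edgeR's test. Without DEN22w they were -1.12 and -0.38, and without STAM16w that of Mlxipl was -2.48. Within each model the sections differed by more for these genes than for Acly and Acaca, and for Srebf1 STAM20w and DEN30w lay close to each other.

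The feeding-responsive genes Thrsp and Angptl8 were set apart by 1 section, DEN22w. Thrsp was at 335, 311, 1466 and 229 CPM, so that DEN30w was the lowest section and the models overlapped. Angptl8 was at 38.6, 90.1, 1061 and 98.9 CPM, with DEN30w close to STAM20w. Their log2 differences, -1.27 for Thrsp (SE 0.84, adjusted p = 0.405) and -3.09 for Angptl8 (SE 1.11, adjusted p = 0.183, edgeR), rest on DEN22w: without it they were 0.74 and -0.41, and without DEN30w -2.08 and -3.98.

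**Figure D1:**
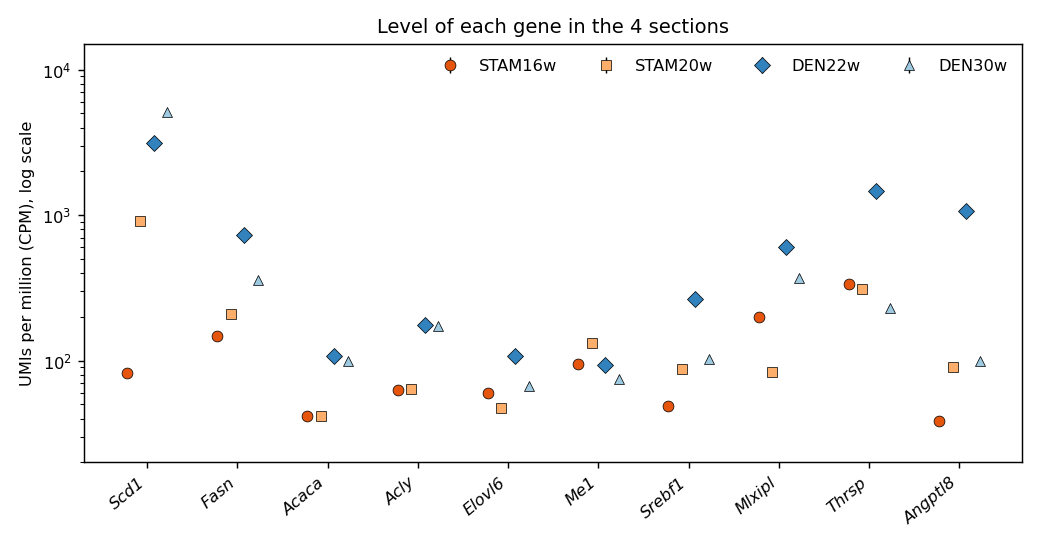
Level of each of the 10 genes in the 4 sections, in CPM on a log axis; each point is 1 section, and the 95% Poisson intervals are mostly smaller than the points. Scd1 runs from 81.7 in STAM16w to 5148 in DEN30w, Acly and Acaca form 2 tight pairs, and DEN22w stands alone at the top for Thrsp and Angptl8.

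In this comparison 0 of 10 genes passed an adjusted p of 0.05 in edgeR's quasi-likelihood test and 7 had an unadjusted p under 0.05, against 22.9% of all genes. The background was 0.437% of the 14417 genes called, 0.291% higher and 0.146% lower in STAM. The median log2 difference was -1.3 over the 10 genes and -0.0016 over all genes. The count changed with the tool, the filter and the sections used: DESeq2 called 4 of the 10 (Acaca, Acly, Fasn and Mlxipl) and 10.5% of all genes, edgeR without a filter on low counts called 7 (those 4 with Scd1, Srebf1 and Angptl8) and 9.14% of genes, and edgeR without STAM16w called Acly alone and 6.02% of genes.

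Between the labelled times the genes went separate ways, also within 1 model. With 1 section on each side there is no test of time, and the intervals below cover counting error only. In STAM, the later section was higher in Scd1, Angptl8, Srebf1, Fasn and Me1 and lower in Mlxipl and, by less, in Elovl6 and Thrsp. In DEN+CCl4, the later section was higher in Scd1, nearly level in Acly and lower in the other 8 genes, most in Angptl8, Thrsp, Srebf1 and Fasn.

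The CPM ratio of STAM20w to STAM16w was 11.1 for Scd1 (95% binomial interval 10.5 to 11.6), and it was 10.7 without the tissue region highest in the gene. Angptl8 was 2.34 times as high in STAM20w (2.16 to 2.53) and Srebf1 1.79 times (1.67 to 1.93), while Mlxipl was 2.39 times as high in STAM16w (2.28 to 2.50). Fasn and Me1 both had a ratio of 1.40. Acly, at 1.01 (0.945 to 1.08), and Acaca, at 0.993 (0.914 to 1.08), had intervals that held 1, so no difference was detectable at this depth.

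The ratio of DEN30w to DEN22w was 1.65 for Scd1 (1.63 to 1.66). Angptl8 was 10.7 times as high in DEN22w (10.3 to 11.1), Thrsp 6.41 times (6.26 to 6.57), Srebf1 2.57 times (2.46 to 2.67) and Fasn 2.04 times (1.99 to 2.08). Mlxipl, Elovl6 and Me1 had ratios of later to earlier of 0.618, 0.631 and 0.810, that of Acaca was 0.930 (0.883 to 0.98), and that of Acly was 0.988 (0.949 to 1.03). Acly was thus nearly level between the sections of either model, beside Angptl8 and Thrsp that differed several-fold in DEN+CCl4.

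Counted by a 2-fold limit, 2 of the 10 genes were higher (Scd1, Angptl8) and 1 lower (Mlxipl) in STAM20w than in STAM16w, against 7.42% higher and 3.71% lower among 2775 genes. In DEN30w against DEN22w, 0 genes were higher and 4 lower (Fasn, Srebf1, Thrsp, Angptl8), against 2.58% and 1.51% of 2906 genes.

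**Figure D2:**
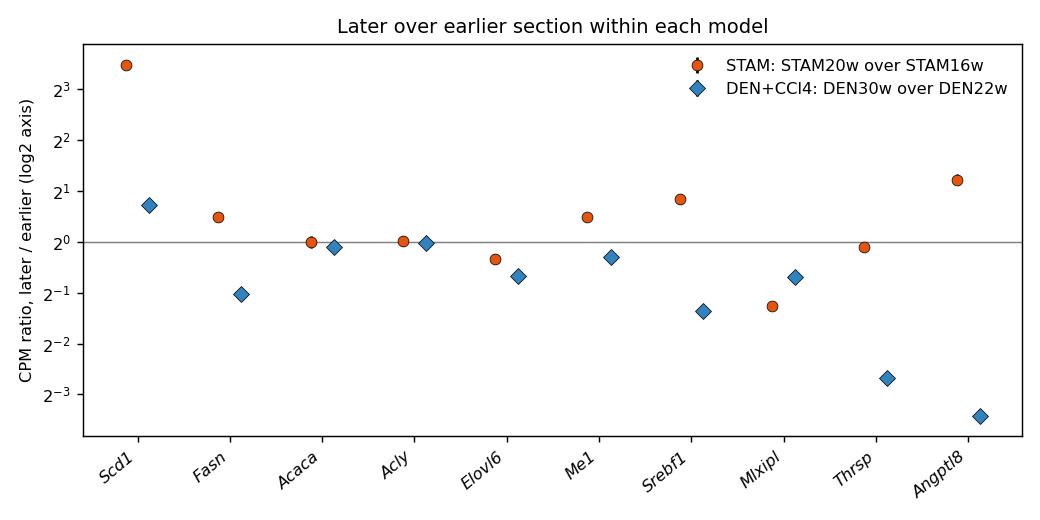
Ratio of CPM in the later to the earlier section within STAM (circles) and within DEN+CCl4 (diamonds), on a log2 axis, 1 section on each side, with 95% binomial intervals mostly smaller than the points. Acly and Acaca lie on or close to the line of no difference in both models, Scd1 lies at 11.1 in STAM, and Angptl8 lies at 2.34 in STAM and 0.0933 in DEN+CCl4.

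Acly, Srebf1 and Thrsp were higher toward the portal vein than toward the central vein in 4 of 4 sections, and Acaca passed the test on the same side but in 7 of 17 settings only. Spots were ordered within each section by the level of 8 pericentral genes minus that of 9 periportal genes, none of them a member of the pathway, and cut into 3 equal groups, called here the pericentral end, the middle and the periportal end. As a check, 8 other pericentral and 8 other periportal genes were tested: 8 of 8 and 7 of 8 were called on their own side, with median log2 differences of 1.44 and -0.83. Of the spots, 122 to 254 per section lay within 0.1 of each single boundary.

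Acly, the citrate-cleaving enzyme, was at 45.3, 62.0 and 82.0 CPM from the pericentral end through the middle to the periportal end of STAM16w. It was at 45.6, 64.0 and 81.4 CPM in STAM20w, at 158, 168 and 189.7 CPM in DEN22w, and at 136, 167 and 205 CPM in DEN30w. The level rose stepwise toward the portal end in every section, by least in DEN22w. The log2 difference of the pericentral from the periportal end, with section as a block, was -0.79 (SE 0.09, adjusted p = 0.000452, edgeR's quasi-likelihood test with Benjamini-Hochberg adjustment).

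Srebf1 was at 42.5, 45.6 and 59.1 CPM from the pericentral to the periportal end of STAM16w, at 59.7, 92.6 and 112 CPM in STAM20w, at 222, 269 and 289 CPM in DEN22w, and at 87.2, 98.2 and 119.9 CPM in DEN30w. Thrsp was at 291, 342 and 375 CPM in STAM16w, 228, 302 and 407 CPM in STAM20w, 1380, 1483 and 1506 CPM in DEN22w, and 186, 222 and 267 CPM in DEN30w. Both genes were graded in 4 of 4 sections, with STAM20w the steepest. The log2 differences were -0.72 for Srebf1 (SE 0.10, adjusted p = 0.000899) and -0.62 for Thrsp (SE 0.11, adjusted p = 0.00638) by edgeR.

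Acaca passed more narrowly, at a log2 difference of -0.31 (SE 0.09, adjusted p = 0.0427, edgeR). Its CPM at the pericentral and periportal ends were 37.7 and 44.9 in STAM16w, 36.2 and 46.0 in STAM20w, 114 and 104 in DEN22w, and 93.0 and 105 in DEN30w, so DEN22w leaned the other way before scaling. Me1 leaned to the central vein in every section, with 104 against 87.8 CPM in STAM16w, 169 against 99.7 in STAM20w, 119 against 78.5 in DEN22w and 81.2 against 70.1 in DEN30w. It did not pass the test, at a log2 difference of 0.31 (SE 0.11, adjusted p = 0.0953, edgeR).

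Scd1 and Fasn depended on the section. Scd1 was at 623 CPM at the pericentral and 1112 CPM at the periportal end of STAM20w but at 3310 and 2923 CPM in DEN22w. Fasn was at 154 and 281 CPM in STAM20w and at 858 and 654 CPM in DEN22w. Scd1 was at 69.3 and 89.2 CPM at the pericentral and periportal ends of STAM16w, and at 4798 and 5288 CPM in DEN30w. Fasn was at 138 and 161 CPM in STAM16w and at 352 and 372 CPM in DEN30w. Both genes were thus higher at the periportal end in 3 sections and at the pericentral end in 1, DEN22w. Across sections neither passed. The log2 differences were -0.45 for Scd1 (SE 0.14, adjusted p = 0.0712) and -0.35 for Fasn (SE 0.15, adjusted p = 0.174) by edgeR.

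Mlxipl, Elovl6 and Angptl8 had log2 differences near 0: -0.08 for Mlxipl (SE 0.09, adjusted p = 0.649), -0.08 for Elovl6 (SE 0.11, adjusted p = 0.725) and -0.04 for Angptl8 (SE 0.11, adjusted p = 0.881) in edgeR's test. The sign of each turned when total UMIs alone set the scale. Mlxipl was higher at the periportal end in 1 of 4 sections, beside 4 of 4 for Srebf1, and the difference between the 2 regulators was not tested.

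**Figure D3:**
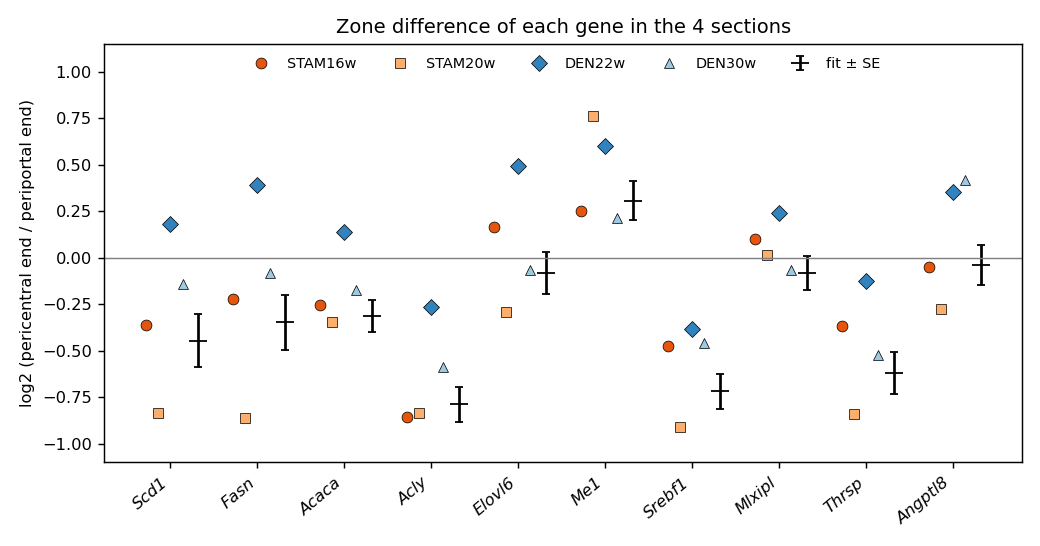
Log2 ratio of the level at the pericentral end to that at the periportal end for each gene; points are the 4 sections on CPM, and the crosses with bars are the fitted difference across sections ± SE, which uses another scale (TMM factors). Acly, Srebf1 and Thrsp lie below 0 in 4 of 4 sections, Me1 lies above 0 in 4 of 4, and DEN22w is above 0 for Scd1, Fasn, Acaca and Elovl6.

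In all, 4 of the 10 genes passed at the periportal side and 0 at the pericentral side, against a background of 9.07% of 13358 genes called, 4.86% periportal and 4.21% pericentral. On CPM, 6.08% of genes were higher at the periportal end in 4 of 4 sections and 28.5% at the pericentral end, so the 3 genes that were periportal in every section stood on the rarer side and Me1 on the commoner one. Scaling by total UMIs alone moved the median of all genes by 0.16 toward the pericentral end and the pericentral share of the calls from 46.4% to 81.4%. Under it Acly (-0.63, adjusted p = 0.00766), Srebf1 (-0.56, adjusted p = 0.00954) and Thrsp (-0.46, adjusted p = 0.0301) still passed in edgeR, Me1 passed toward the pericentral end (0.46, adjusted p = 0.0227), and Acaca did not pass (-0.15, adjusted p = 0.284). Leaving out DEN30w left 2 genes, Acly and Srebf1, and 3.99% of all genes. DESeq2 called 4 genes, with Scd1 in place of Acaca, and 5.4% of genes. Without a filter on low counts edgeR called 7, against 9.49% of genes, and with total UMIs alone 4, against 10.6%.

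Depth and other cells moved with the zones, and their part in the result was not tested. Median UMIs per spot at the pericentral and periportal ends were 10336 and 9331 in STAM16w, 12886 and 13169 in STAM20w, 5783 and 9727 in DEN22w, and 7832 and 11622 in DEN30w. Markers of non-parenchymal and blood cells took 0.178% and 0.175% of the UMIs at the pericentral and periportal ends of STAM16w, 0.286% and 0.240% in STAM20w, 0.218% and 0.134% in DEN22w, and 0.437% and 0.211% in DEN30w. Hepatocyte genes were at 35094 and 43113 CPM at the pericentral and periportal ends of STAM16w, at 38099 and 63017 CPM in STAM20w, at 80026 and 84028 CPM in DEN22w, and at 72790 and 70795 CPM in DEN30w. Tumour and progenitor genes were at 20.8 and 28.4 CPM at these ends of STAM16w, and at 174 and 132 CPM in STAM20w. In DEN22w they were at 37.6 and 13.3 CPM, and in DEN30w at 69.7 and 25.6 CPM. The STAM20w regions led by Cpe and by Gpx2, described below, were kept in the zone groups. Their part in the steep differences of STAM20w was not tested.

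Whether the zone differences themselves differ between the models was tested as an interaction. In edgeR's quasi-likelihood test 0 of 10 genes passed, against 0.12% of 13358 genes called (0.0225% more pericentral and 0.0973% more periportal in STAM), 3 had an unadjusted p under 0.05, against 12.9% of all genes, and DESeq2 called 0, against 0.105%. Those 3 were Fasn, with a zone difference lower in STAM by 0.56 (log2 -0.56, SE 0.24, adjusted p = 0.369), Scd1 (-0.49, SE 0.22, adjusted p = 0.382) and Angptl8 (-0.41, SE 0.16, adjusted p = 0.319). Angptl8 was pericentral in both DEN+CCl4 sections, at 1186 against 928 CPM and 113 against 84.7 CPM, and periportal in STAM20w, at 85.1 against 103 CPM. In STAM16w, at 35.9 against 37.0 CPM, the ratio of periportal to pericentral was 1.03 (0.865 to 1.23), so no difference was detectable at this depth. When STAM16w was left out, so that STAM20w stood alone and was taken to vary like the others, 7 of 10 were called (Angptl8, Elovl6, Fasn, Me1, Scd1, Srebf1 and Thrsp), against 10.2% of all genes, and leaving out any other section gave 0.

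Within STAM20w the level of the synthesis enzymes per UMI was raised in 1 patch of tissue, and that of Scd1 and Srebf1 was low in another. Each section was divided into regions by clustering spots on their variable genes, the 10 genes and the other lipid genes listed below left out, and regions are named by their leading genes. The values describe the tissue and are no test, since regions come from the same spots. In the patch led by Cib3 and Akr1c18, 259 spots (9.14% of the section), the synthesis enzymes were higher than elsewhere, whereas in the patch led by Cpe and Slc7a11, 162 spots, Scd1 and Srebf1 were lower and Me1 was higher.

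In the Cib3 patch Fasn was at 526 CPM against 193 CPM in the rest of the section, a ratio of 2.73 (2.55 to 2.92). Acly was at 139 against 59.6 CPM (ratio 2.34), Acaca at 86.8 against 39.3 CPM (2.21) and Scd1 at 1874 against 857 CPM (2.19). Elovl6, at a ratio of 1.74, and Srebf1, at 1.66, were higher too. At a limit of 1.5-fold 6 of the 10 genes were above and 0 below, against 8% above and 4.28% below among 5422 genes. The remaining 4 did not reach the limit: Angptl8 had a ratio of 1.46, Me1 1.09, Mlxipl 1.05 and Thrsp 1.03. The patch thus held more RNA of all 5 enzymes from citrate to oleate per UMI, with Mlxipl and Thrsp near the level of the rest, at a median of 6540 UMIs per spot and 61507 CPM of hepatocyte genes. The patch had 8.35% of the section's UMIs of the 10 genes in 9.14% of its spots.

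The Cpe patch showed another combination. Scd1 was at 342 CPM there against 972 CPM elsewhere (ratio 0.352, 0.333 to 0.371) and Srebf1 at 40.4 against 93.3 CPM (0.433). Thrsp had a ratio of 0.635 and Fasn of 0.640, while Me1 was at 229 against 121 CPM (1.90, 1.77 to 2.04). At 1.5-fold 1 gene was above and 4 below, against 15.8% and 9.26% of 5463 genes. Hepatocyte genes were also lower in this patch, at 26578 CPM, with a median of 25532 UMIs per spot. Their part in the low Scd1 was not tested.

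Other regions of STAM20w differed by fewer genes. In the region led by Gpx2 and Prss36, 116 spots, Me1 was higher (ratio 1.54) and Scd1 (0.642), Acly (0.646) and Srebf1 (0.585) were lower, against 3.39% of genes above and 3.41% below. The region led by H19 and Gm44427, 228 spots with the fetal gene Afp among its leading genes, was higher in Angptl8 (1.59) and lower in Fasn (0.518), against 8.72% above and 7.39% below. It also had 3056 CPM of the adipocyte list, with Fabp4 among its leading genes, where the other regions had 236 to 638, and 728 CPM of tumour and progenitor genes, and their part was not tested. In the region led by Ighg2b and Igkc, 395 spots, Thrsp (1.93) and Fasn (1.88) were higher, against 2.4% above and 4.62% below. In the region led by mt-Atp8 and mt-Nd5, 481 spots, Fasn (0.572), Angptl8 (0.598) and Acly (0.617) were lower and 0 genes were higher, against 5.56% of genes below and 0.864% above.

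**Figure D4:**
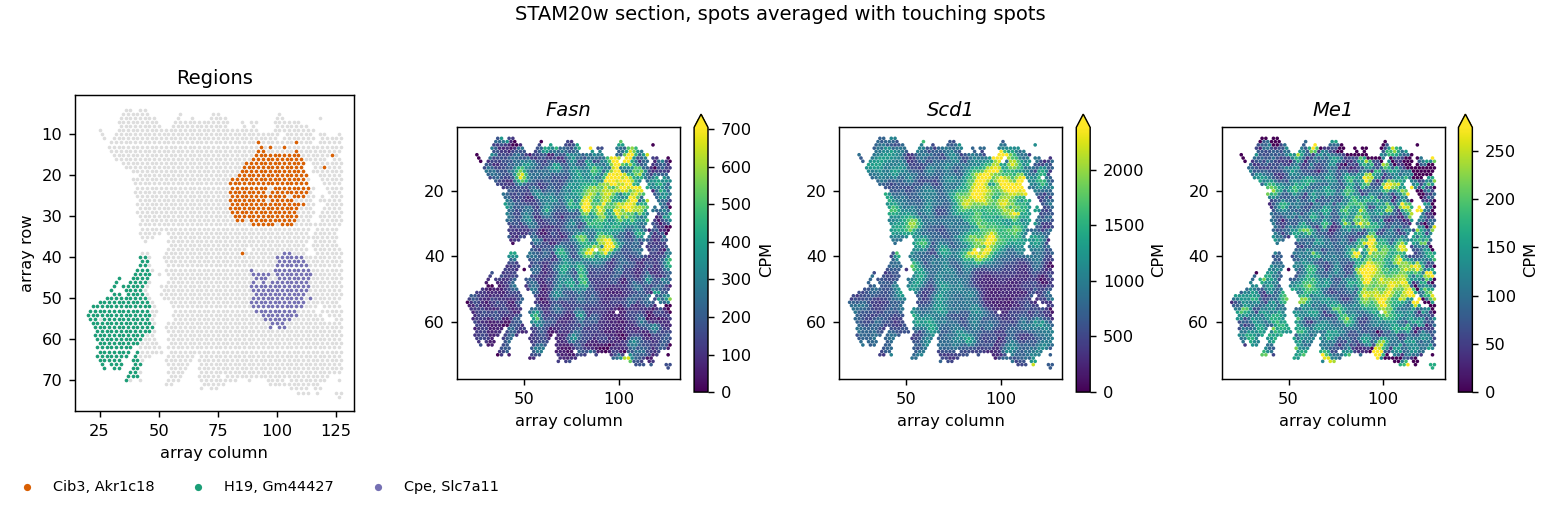
The STAM20w section with array positions on both axes; the left panel marks the regions led by Cib3 and Akr1c18, by H19 and Gm44427 and by Cpe and Slc7a11, and the others give CPM of Fasn, Scd1 and Me1 averaged over touching spots, with the colour scale capped at high values. Fasn and Scd1 are brightest in and around the Cib3 patch, and Me1 is brightest in and around the Cpe patch, where Scd1 is dark.

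**Figure D5:**
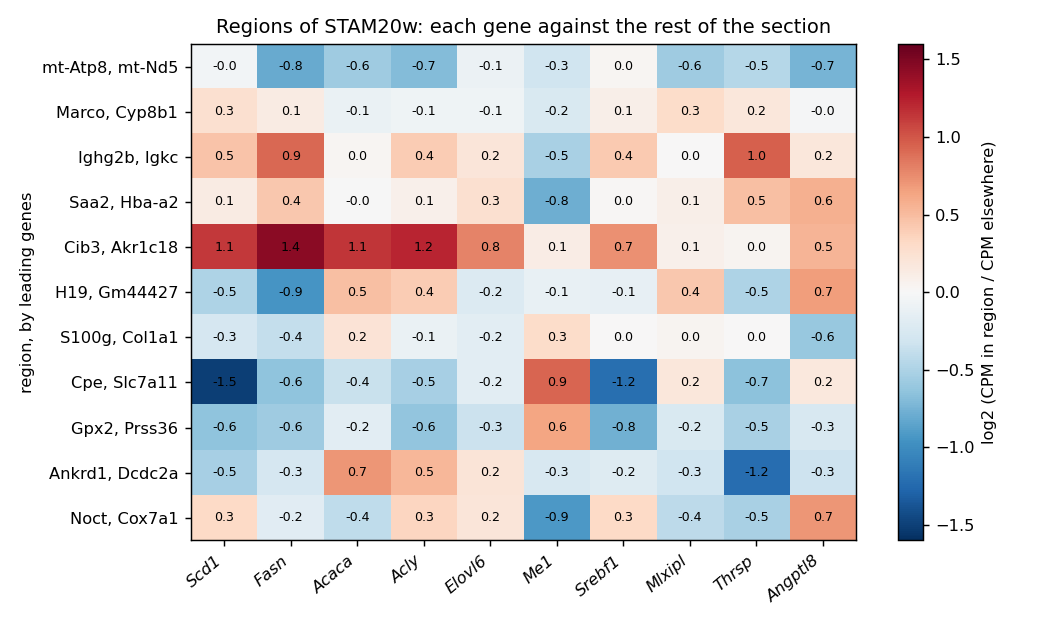
Log2 ratio of each gene's CPM in each of the 11 regions of STAM20w to its CPM in the rest of the section, red above and blue below. The row led by Cib3 and Akr1c18 is red from Scd1 to Elovl6 and near 0 for Me1, Mlxipl and Thrsp, and the row led by Cpe and Slc7a11 is dark blue for Scd1 and Srebf1 and red for Me1.

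The other sections had fewer such differences. Of the region and gene pairs compared, 28 of 110 in STAM20w were past 1.5-fold, against 0 of 50 in STAM16w, 0 of 30 in DEN22w and 2 of 60 in DEN30w, where Mlxipl (0.528) and Angptl8 (0.639) were low in a region led by mt-Nd3 and mt-Co1. The highest regional level of the 10 genes summed was 2.78 times the lowest in STAM20w, 1.35 times in STAM16w, 1.34 times in DEN30w and 1.08 times in DEN22w. Regions were found separately in each section and differ in number and size, and the counts depend on how finely a section is divided. With finer regions 32 of 120 pairs were past 1.5-fold in STAM20w, 8 of 60 in STAM16w, 4 of 70 in DEN22w and 4 of 80 in DEN30w, and the summed level in STAM16w ranged 1.89-fold. With coarser regions the counts were 24 of 80, 2 of 20, 0 of 30 and 4 of 50. The finer regions of STAM16w included a patch of 72 spots led by Nupr1 and Ptgds. There Scd1, Fasn, Acly, Me1, Thrsp and Angptl8 were more than 1.5-fold above the rest of the section. Tumour and progenitor genes were at 96.6 CPM in this patch, against 25.1 CPM in the whole section, and their part was not tested.

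From spot to spot, Scd1 varied more in the STAM than in the DEN+CCl4 sections. With every spot thinned to 2000 UMIs, its spread beyond counting error was 0.538, 0.534, 0.184 and 0.212 of the mean in STAM16w, STAM20w, DEN22w and DEN30w, with no overlap between models. The thinned spots held a mean of 0.17, 1.92, 6.15 and 9.79 Scd1 UMIs, so the value of STAM16w rests on few UMIs per spot. Thinned to 4000 UMIs, the spread was 0.634, 0.538, 0.169 and 0.209. Moran's I, a measure of likeness between touching spots, was 0.0722, 0.404, 0.110 and 0.185 for Scd1, at percentiles 96.2, 99.0, 98.3 and 99.1 of the genes detected in at least 10% of spots. For Thrsp it was 0.169, 0.270, 0.143 and 0.0909, for Fasn 0.0885, 0.282, 0.0401 and 0.106, and for Elovl6 0.0116, 0.0357, 0.0176 and 0.0212. Touching spots were thus alike in Scd1 and Thrsp in every section, least in Scd1 in STAM16w. Elovl6, the enzyme between Fasn and Scd1, was close to the middle of these genes, at percentiles 55.2 to 64.2. Spots were not thinned for Moran's I, which counting noise lowers in genes of few UMIs. Elovl6 was at 47.1 to 107 CPM and Scd1 at 81.7 to 5148 CPM, and the part of level in the contrast was not tested.

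To see which of the genes vary together, levels were compared over tiles of neighbouring spots, 58, 86, 79 and 84 tiles per section. Tiles of a section share a library and differ in depth and tissue composition, so the correlations are descriptions. Of the 45 pairs of genes, 34 and 39 were positive in STAM16w and STAM20w and 20 and 19 in DEN22w and DEN30w, and the median Pearson r was 0.16, 0.23, -0.04 and -0.02. There were 9 pairs positive in 4 of 4 sections. The highest medians were those of Fasn with Thrsp (0.50, from 0.28 to 0.56), Fasn with Angptl8 (0.44, from 0.34 to 0.54) and Mlxipl with Thrsp (0.39, from 0.37 to 0.57). Scd1 with Mlxipl had a median of -0.33, from -0.56 to 0.14. Over the same tiles the level of the hepatocyte genes had an r of 0.57, 0.64, 0.73 and 0.66 with Scd1 and of 0.05, 0.13, -0.74 and -0.77 with Mlxipl, and its part was not tested. UMIs per spot of the tiles had an r of 0.28, -0.22, -0.06 and 0.40 with Scd1. With Mlxipl that r was -0.21, -0.16, -0.30 and -0.68, and the part of depth was not tested. With larger tiles the medians of DEN22w and DEN30w became 0.02 and 0.14. Those of Fasn with Thrsp and Mlxipl with Thrsp were then 0.55 and 0.37, while that of Fasn with Angptl8 fell to 0.27, with 0.01 in DEN30w.

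The 5 genes most like the summed level of the 10, by median r over tiles among 4356 genes at 20 CPM or more in every section, were Alb (0.44), Pcyt2 (0.36), Trf (0.36), Acaa1b (0.34) and Apoa4 (0.33). No r of theirs was alike in 4 sections: that of Alb was 0.45, 0.43, 0.01 and 0.46, and that of Pcyt2 0.40, 0.71, 0.32 and -0.43. With larger tiles the first 5 were Gckr, Hacl1, Uox, Metap1d and Trf, so only Trf was in both lists. The sum weighs each gene by its UMIs, so its make-up differed between sections. Scd1 made up 7.36%, 45.9%, 40.4% and 76.5% of it in STAM16w, STAM20w, DEN22w and DEN30w. Alb and Trf are also on the hepatocyte list, and the part of hepatocyte content in these likenesses was not tested.

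Genes around the pathway were read by lists. In STAM against DEN+CCl4, edgeR called 2 genes of these lists. Mogat1, which acylates monoacylglycerol, was at 17.8, 31.2, 1.25 and 1.52 CPM in STAM16w, STAM20w, DEN22w and DEN30w and was higher in STAM by 4.30 on the log2 scale (SE 0.32, adjusted p = 0.0193, edgeR). Rgs16, a G protein regulator known as a glucose-responsive ChREBP target, was at 48.6, 50.4, 5.25 and 2.26 CPM and was higher in STAM by 3.89 (SE 0.46, adjusted p = 0.0455, edgeR), the opposite side from Mlxipl. These were 1 of 12 genes tested of triglyceride assembly and export and 1 of 13 of ChREBP partners and sugar-responsive targets. The background was 0.437% of all genes called.

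In the remaining lists 0 genes passed in edgeR. Over all genes 50.2% had lower fitted levels in STAM, 22.9% had an unadjusted p under 0.05 and DESeq2 called 10.5%, and the counts below are to be read against these. Of 15 genes of cholesterol synthesis 15 had lower fitted levels in STAM (median -0.78, 9 at an unadjusted p under 0.05, 5 called by DESeq2), with Fdps at -1.44. Of 8 genes of fatty acid oxidation 8 had higher fitted levels in STAM (median 0.69, 5 at an unadjusted p under 0.05, 4 called by DESeq2), with Ehhadh at 2.31. Among 21 genes of SREBP processing and lipogenic control (5 at an unadjusted p under 0.05, 3 called by DESeq2), Ppara was at a log2 difference of 2.31. Of 16 other genes of synthesis, elongation and desaturation 5 had an unadjusted p under 0.05 and DESeq2 called 4, of 6 genes of NADPH supply the numbers were 0 and 0, and of 5 Angptl8 partners 3 and 2.

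Across the zones 4 of the 8 lists had calls on both sides, and no difference between lists was tested. Over all genes edgeR called 4.86% periportal and 4.21% pericentral, and the calls below are to be read against these shares. Of the 16 other genes of synthesis, 3 were higher at the periportal end, the elongases Elovl2 (-0.50, adjusted p = 0.0103) and Elovl5 (-0.42, adjusted p = 0.0363) and the desaturase Fads2 (-0.42, adjusted p = 0.0260), and 1 at the pericentral end, Scd2 (0.72, adjusted p = 0.00141), in edgeR's test. Of 15 genes of cholesterol synthesis 3 were pericentral, Fdps (0.48), Hmgcs1 (0.47) and Fdft1 (0.29), and 0 periportal, the side opposite to Acly and Srebf1. Of 13 ChREBP partners and sugar-responsive targets G6pc (-0.66) was among those called periportal and Fgf21 (0.52) was pericentral.

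Of 21 SREBP processing and control genes Insig1 (-0.37) and Insr (-0.30), the insulin receptor, were periportal, as were Lpin1 (-0.67) and Agpat2 (-0.31) of 12 genes of triglyceride assembly, where Mogat1 (0.83) was pericentral. Lpl (0.66), the lipase that Angptl8 acts on, was pericentral, among 5 genes of its partners and target. Of 6 genes of NADPH supply and 8 of fatty acid oxidation 0 passed in edgeR, with 2 and 1 at an unadjusted p under 0.05, against 23.6% of all genes, and DESeq2 called 0 in both lists. In the interaction with model 0 genes of any of these lists passed in edgeR, with 7 of the 15 cholesterol genes and 5 of the 16 synthesis genes at an unadjusted p under 0.05, against 12.9% of all genes, and DESeq2 called 0.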

How the data were processed

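Spots of 4 Visium liver sections were measured, 1 section per group. The deposited matrices give UMI counts for each spot and gene, not normalized by the authors, per the file headers. Per the submitters' processing notes, the tools were Space Ranger 1.3.1 and STAR and the build was mm10; their settings are not given in the sources used. Spots with at least 500 UMIs and 250 genes were kept, of 2082, 2895, 2804 and 3073 over tissue. No doublet caller was run, since spots are not cells.

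UMI counts were summed per section, or per section and zone group, and tested with edgeR 4.0.16 in R 4.3.3 (TMM factors, filterByExpr, quasi-likelihood test, Benjamini-Hochberg over all genes at 0.05). The models were compared over 4 section sums, and zones over 8 sums with section as a block, zone score genes left out. Each SE was derived from the test, as the absolute log2 difference divided by the square root of its F statistic. DESeq2 1.42.0, other scalings, filters, zone scores and left-out sections were alternatives. The fits were also run on simulated counts with a spread fixed in advance and no differences between sections of a group. That run cannot show how they perform at the spread of these sections. The p-values measure only the spread between these sections, which may be technical, and counting intervals (95%) cover counting error only.

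Regions came from Leiden clustering (resolution 0.6) and tiles were 6 array rows by 12 columns with at least 18 spots. The 10 genes and the lists were chosen with earlier results of these data known. All 10 genes are named; of each list, those past the threshold and the 2 with the largest fold change (some genes are not reported here), and for likeness the 5 with the highest median correlation over tiles. Symbols that occur more than 1 time (78) were kept apart by identifier, and none is among the 10 genes. Promoter sequences are RefSeq's, of assembly GRCm38.p6, matched by symbol.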

Additional observations from a re-analysis of the deposited data

Results flagged for a closer look

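Some results went opposite ways in the models. Angptl8 was higher at the pericentral end in both DEN+CCl4 sections and at the periportal end in STAM20w, while in STAM16w the ratio of periportal to pericentral was 1.03, with an interval (0.865 to 1.23) that held 1. The interaction was -0.41 on the log2 scale and did not pass in edgeR's quasi-likelihood test (SE 0.16, adjusted p = 0.319, Benjamini-Hochberg).

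Between the earlier and the later section, 4 of the 10 genes had ratios on opposite sides of 1 in the models with counting intervals that did not hold 1. The ratio of later to earlier was 1.40 in STAM and 0.491 in DEN+CCl4 for Fasn, 1.40 and 0.810 for Me1, 1.79 and 0.390 for Srebf1, and 2.34 and 0.0933 for Angptl8. Those of Acly, 1.01 and 0.988, also lay on opposite sides, but both intervals held 1. The differences were not tested, since each ratio has 1 section on each side, and the labelled times differ between the models. Each group holds 1 section, and no section was tested against others of its own group.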

How the results depend on the processing

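Of the recomputed counts and summaries 59 stayed close to the reported value, 5 were stronger, 2 weaker and 7 moved. Of the 10 genes, the count called between STAM and DEN+CCl4 (0) became 4 with DESeq2 and 7 with no filter on low counts, and was 0 to 1 with a section left out (1 without STAM16w). The zone count (4) became 7 with no filter on low counts and 0 with no section block, and was 2 to 4 with a section left out (2 without DEN30w). Acly and Srebf1 passed in 16 of 17 zone settings, Thrsp in 15, Acaca in 7, Me1 and Scd1 in 2 and Fasn in 1. The interaction count (0) was 0 to 7 with a section left out (7 without STAM16w). With larger tiles the median r of pairs was 0.024 in DEN22w and 0.144 in DEN30w. Pairs of gene and region past 1.5-fold numbered 8 in STAM16w, 4 in DEN22w and 4 in DEN30w with finer regions (0, 0 and 2 in the regions reported), and 2 in STAM16w and 4 in DEN30w with coarser ones. The causes were not tested.

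Over all genes, calls ranged from 2 to 1872 between the models (63 in the comparison reported), from 0 to 1890 between the zones (1211) and from 0 to 1438 for the interaction (16). Total UMIs alone as the scale moved the share of calls higher in STAM from 66.7% to 50%, and the median of all genes by -0.17. The ratios between times moved with TMM factors, that of Scd1 in STAM from a log2 of 3.47 to 3.31, and no ratio past 2-fold lost its direction. The section sums held 798 to 179549 UMIs per gene, and leaving out a section moved the log2 difference of Scd1 between -2.10 and -5.43. The zone comparison was paired within sections through the section block. No pairing between groups was possible because every section carries the same replicate number, 1, and is alone in its group.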
